A study of Oryctolagus cuniculus with 39 samples.

Results

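The genes described here make, take up or respond to retinoic acid. They are the retinal dehydrogenases ALDH1A1 (gene ID 100008636), ALDH1A2 (100339014) and ALDH1A3 (100356011), the retinol dehydrogenase RDH10 (100340133), the retinol transporter STRA6 (100350881) and the retinoic acid receptors RARA (100009009) and RARB (100358445). They are 7 of 8 symbols looked up by name among the 20589 genes of one expression table, and all 7 were matched by gene ID among the 20183 genes of a second table. The receptor RXRA was not matched by symbol and was not analysed here. The set was chosen by a measured value, the higher ALDH1A1 level at later ages in all 3 tissues, so the ALDH1A1 values by age are given as a description with no test.

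The libraries came from brown adipose tissue (BAT) of New Zealand White rabbits, with no genetic change or treatment named in the labels. There were 12 groups of 3 libraries, 36 in all: whole interscapular BAT (total iBAT), the stromal vascular fraction of interscapular BAT (iBAT SVF) and that of subscapular BAT (sBAT SVF), each at ages of 1 day and of 3, 6 and 12 weeks. The stromal vascular fraction holds the cells of the tissue other than mature fat cells. The labels do not say whether the 3 libraries of a group came from separate animals, so the p-values measure only the spread between these libraries, which may be technical. A further 3 samples are single-cell libraries and were not analysed here.

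Retinol reaches cells bound to the plasma carrier RBP4 and can enter through STRA6. Inside the cell retinol is oxidised to retinal by enzymes such as RDH10 and then, irreversibly, to retinoic acid by the ALDH1A enzymes. Retinoic acid binds the nuclear receptors RARA, RARB and RARG, which pair with RXR receptors on DNA, and the CYP26 enzymes break it down. In adipose tissue, retinaldehyde and retinoic acid are known to affect fat cell differentiation and the thermogenic gene programme.

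Levels are FPKM, fragments per kilobase of transcript scaled to the mapped fragments of the library, as deposited, and can be compared between genes of a table because they are per length. The total iBAT table and the SVF table were normalised separately, so tests were made only within a table. Differences are on the log2(FPKM + 1) scale with limma's standard error (SE), and a gene was called where its limma p, adjusted by the Benjamini-Hochberg method over all genes tested, was below 0.05. Every value was also computed after median ratio scaling, which gives the typical gene of each library the same level ("after scaling"). As deposited, the median difference from day 1 over all genes was 0.25, 0.24 and 0.19 at 3, 6 and 12 weeks in total iBAT, -0.13, -0.15 and -0.10 in iBAT SVF, and -0.88, 0.26 and 0.41 in sBAT SVF. After scaling it lay between -0.05 and 0.02. The sBAT SVF libraries at 3 weeks stood apart: 63.9% to 80.4% of their FPKM lay in 2 genes, ADORA1 and LOC100009266. The share was also raised in sBAT SVF at day 1, the base of every comparison by age there, at 26.2% to 37.3%. It was 2.02% to 8.71% in iBAT SVF at day 1 and 5.21% to 8.81% in sBAT SVF at 12 weeks. Single libraries reached 20.3% in iBAT SVF at 3 weeks and 19.2% in sBAT SVF at 6 weeks. The part of these 2 genes in the results was not tested. FPKM sums ran from 389593 to 548723 per library, with 12416 to 17799 genes above 0. The tables do not give the number of fragments behind each value. Low FPKM steps gave the relative depth of the total iBAT libraries, where 1 is their geometric mean: 0.562 to 0.625 at day 1, 0.797 to 0.987 at 3 weeks, 1.36 to 1.54 at 6 weeks and 1.35 to 1.39 at 12 weeks. Depth and age thus moved together there, and the part of depth in the results was not tested. For the SVF libraries the estimate moved with the choice of low genes and is not given. Whether depth moved with age in the SVF libraries is therefore not known.

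The tissue labels were checked against marker genes. In total iBAT the summed FPKM of 5 of 6 brown adipocyte markers (UCP1 and CIDEA among the list) was 6153 to 6418 at day 1 and 1513 to 1801 at 12 weeks. In the SVF table, normalised separately, it stayed between 4.22 and 115 in iBAT SVF and between 26.0 and 179.5 in sBAT SVF. The sum of 8 of 8 fibroblast and adipose progenitor markers in total iBAT was 1361 to 2227 at day 1, 7024 to 11762 at 3 weeks, 7655 to 17327 at 6 weeks and 5111 to 10281 at 12 weeks, with no overlap between day 1 and any later age. In iBAT SVF it was 21469 to 34944 at day 1 and 36306 to 43256 at 12 weeks, and in sBAT SVF it was 8869 to 15873 at day 1, 4457 to 10608 at 3 weeks, 20490 to 31344 at 6 weeks and 12145 to 21824 at 12 weeks. In iBAT SVF the sum of 6 of 7 smooth muscle and pericyte markers was 951 to 1100 at day 1 and 149.7 to 249 at 12 weeks, and that of 6 of 8 macrophage markers 237 to 288 and 86.3 to 135, neither with an overlap. The sum of 3 of 5 skeletal muscle markers ran from 3.0 to 4034 over the 3 total iBAT libraries of 3 weeks. The sum of 7 of 9 adipocyte markers was 1883 to 7100 at day 1 and 2798 to 4761 at 12 weeks in iBAT SVF, and 2400 to 5763 and 5069 to 8169 in sBAT SVF. Of the markers found, LEP and the mesothelial marker LRRN4 were at 0 in all sBAT SVF libraries at day 1. At 3 weeks this held for ELOVL3 and the mesothelial markers KRT8 and LRRN4 in sBAT SVF, and for the mesothelial marker WT1 in iBAT SVF. The part of these shifts in cell types in the results was not tested. In bulk samples fewer cells of a type and less RNA per cell cannot be told apart.

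ALDH1A1 oxidises retinal and other aldehydes. At day 1 it was, with RARB and STRA6, among the 3 lowest of the 7 genes in both stromal fractions, and at 12 weeks its mean was the highest of the 7 in each tissue. In total iBAT it had an FPKM of 9.96, 13.4 and 22.0 in the 3 libraries of day 1, 81.5, 80.2 and 68.2 at 3 weeks, 281, 373 and 484 at 6 weeks, and 419.6, 469 and 257 at 12 weeks. No library of a later age was as low as any of day 1, and 6 and 12 weeks overlapped. The group means were 15.1 ± 6.19, 76.6 ± 7.37, 379 ± 102 and 382 ± 111 (SD, n = 3), so the 12-week mean was 25.3 times that of day 1. The log2 difference from day 1 was 2.33, 4.59 and 4.59 at 3, 6 and 12 weeks, and 2.04, 4.33 and 4.39 after scaling.

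In iBAT SVF, ALDH1A1 stood at 2.68, 6.99 and 2.23 FPKM at day 1 and at 64.5, 77.5 and 71.7 at 3 weeks. At 6 weeks it was 57.4, 98.1 and 62.9, and at 12 weeks 111, 122 and 125. The 3-week and 6-week libraries overlapped, and both lay between day 1 and 12 weeks. The means were 3.97 ± 2.63, 71.2 ± 6.55, 72.8 ± 22.1 and 119.7 ± 7.58 (SD, n = 3), 30.2 times higher at 12 weeks than at day 1. The log2 difference from day 1 was 3.98, 3.98 and 4.72. It was 4.39, 4.38 and 5.13 without day 1 replicate 2, the highest library of that group.

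In sBAT SVF, ALDH1A1 was at 2.42, 4.11 and 2.46 FPKM at day 1, 22.9, 43.7 and 39.5 at 3 weeks, 151, 119.6 and 100 at 6 weeks, and 122, 155 and 102 at 12 weeks. The 6-week and 12-week libraries covered the same range, and 3 weeks lay between them and day 1. The means were 3.00 ± 0.96, 35.4 ± 11, 124 ± 25.9 and 126 ± 27.0 (SD, n = 3), a ratio of 42.2 between 12 weeks and day 1. After scaling, the 3-week mean was 77.8 and the ratio at 12 weeks was 30.2. Across the 8 SVF groups as deposited, the means of sBAT SVF at 6 and 12 weeks and iBAT SVF at 12 weeks were highest and overlapped. The groups of iBAT SVF at 3 and 6 weeks came next and overlapped, sBAT SVF at 3 weeks followed, and the day 1 groups of both depots overlapped at the bottom. The place of sBAT SVF at 3 weeks depends on the scaling: after scaling, the log2 difference of iBAT SVF minus sBAT SVF at 3 weeks was -0.21.

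**Figure D1:**
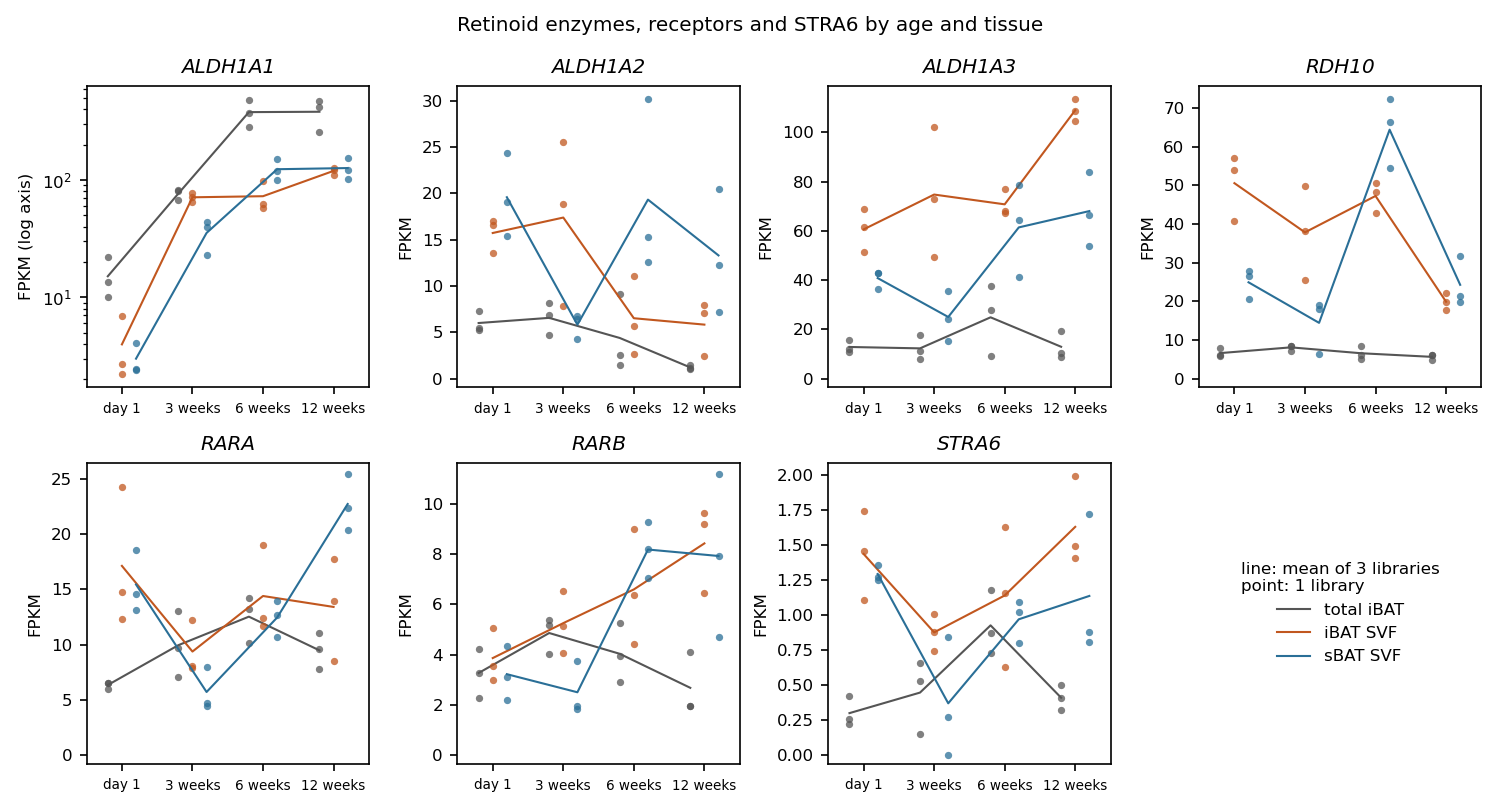
FPKM of the 7 genes in each of 36 libraries by age, for total iBAT, iBAT SVF and sBAT SVF; points are libraries, lines join the means of 3, and the ALDH1A1 axis is logarithmic. ALDH1A1 is above its day 1 libraries at every later age in each tissue, while RDH10 in iBAT SVF is lowest at 12 weeks and in sBAT SVF highest at 6 weeks.

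ALDH1A2, the retinal dehydrogenase that makes most retinoic acid in the early embryo, fell in total iBAT and iBAT SVF between day 1 and 12 weeks. In total iBAT its FPKM was 5.26, 7.28 and 5.47 at day 1, 4.70, 8.13 and 6.85 at 3 weeks, 2.52, 9.15 and 1.5 at 6 weeks, and 1.01, 1.14 and 1.48 at 12 weeks. The 12-week libraries lay below all of day 1 and of 3 weeks, while the 6-week libraries spread over the whole range. The 12-week difference was -1.66 (SE 0.40), with a limma adjusted p of 0.00514, and -1.84 after scaling (limma adjusted p = 0.00246). It was the only one of the 5 genes tested there with no part in the selection that was called at 12 weeks. Of all 12853 genes tested, 47.0% were called, 31.3% higher and 15.7% lower.

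In iBAT SVF, ALDH1A2 was at 16.6, 17.1 and 13.5 FPKM at day 1 and at 18.8, 25.5 and 7.82 at 3 weeks. The 6-week libraries had 5.73, 11.1 and 2.70, the 12-week libraries 7.08, 2.44 and 7.97, and both groups lay below every day 1 library. The 12-week difference of -1.40 (SE 0.46) was called (limma adjusted p = 0.0202), also after scaling (-1.27, limma adjusted p = 0.0369), and the 6-week difference of -1.31 was not (limma adjusted p = 0.055). The 12-week call was lost without day 1 replicate 1 (-1.36, limma adjusted p = 0.0557), without day 1 replicate 2 (-1.34, limma adjusted p = 0.0526) and without 12 weeks replicate 2 (-0.97, limma adjusted p = 0.122).

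In sBAT SVF, ALDH1A2 was at 15.4, 24.3 and 19.0 FPKM at day 1, 4.29, 6.77 and 6.41 at 3 weeks, 30.1, 15.3 and 12.6 at 6 weeks, and 7.20, 20.5 and 12.2 at 12 weeks. Only the 3-week libraries were clear of day 1. Their difference of -1.59 was called as deposited (limma adjusted p = 0.00404) and was -0.53 after scaling (limma adjusted p = 0.41). At 12 weeks the difference was -0.61 (limma adjusted p = 0.281) and -1.05 after scaling (limma adjusted p = 0.0944).

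ALDH1A3, the remaining retinal dehydrogenase of the family, was at a higher FPKM than ALDH1A2 in all 36 libraries and rose in iBAT SVF. In iBAT SVF it was at 51.3, 61.8 and 68.7 FPKM at day 1, 72.8, 102 and 49.2 at 3 weeks, 67.0, 68.3 and 77.0 at 6 weeks, and 113.5, 109 and 104.7 at 12 weeks. All 3 libraries of 12 weeks were above all of the earlier ages. ALDH1A3 rose by 0.85 (SE 0.28) there (limma adjusted p = 0.0208), or 0.96 after scaling (limma adjusted p = 0.00255). The call was lost without day 1 replicate 1 (0.73, limma adjusted p = 0.0827) and without 12 weeks replicate 1 (0.82, limma adjusted p = 0.0591).

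In sBAT SVF, ALDH1A3 was at 36.4, 42.9 and 43.1 FPKM at day 1, 15.1, 35.6 and 24.4 at 3 weeks, 78.6, 41.4 and 64.3 at 6 weeks, and 53.8, 66.3 and 83.9 at 12 weeks. The 12-week libraries were above those of day 1, with a difference of 0.70 (SE 0.28, limma adjusted p = 0.0437) that was 0.22 after scaling (limma adjusted p = 0.493). At 12 weeks the call remained without 1 library only where that library was 12 weeks replicate 1, and in the other 5 cases the limma adjusted p was 0.068 to 0.158. At 3 weeks the difference was -0.76 as deposited (limma adjusted p = 0.0187) and 0.40 after scaling (limma adjusted p = 0.194), so its direction there depends on the scaling. That 3-week call was also lost without day 1 replicate 2 (limma adjusted p = 0.0518) and without 3 weeks replicate 1 (-0.45, limma adjusted p = 0.147). In total iBAT the means were 12.9 ± 2.40 at day 1 and 12.9 ± 5.58 at 12 weeks (SD, n = 3), and the difference was -0.05 (limma adjusted p = 0.938).

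Because the 3 enzymes are read from the same libraries, their shares of the summed ALDH1A FPKM do not depend on the scaling. At day 1 ALDH1A3 had the largest share in both stromal fractions, 75.3% in iBAT SVF and 64.7% in sBAT SVF, and ALDH1A1 had 4.86% ± 2.90 and 4.68% ± 0.99 (SD, n = 3). At 12 weeks ALDH1A1 had 51.0% ± 2.67 and 60.8% ± 8.16. In total iBAT it went from 43.4% ± 6.87 at day 1 to 95.9% ± 2.95 at 12 weeks. These ALDH1A1 shares follow from the value the genes were selected on and are a description.

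**Figure D2:**
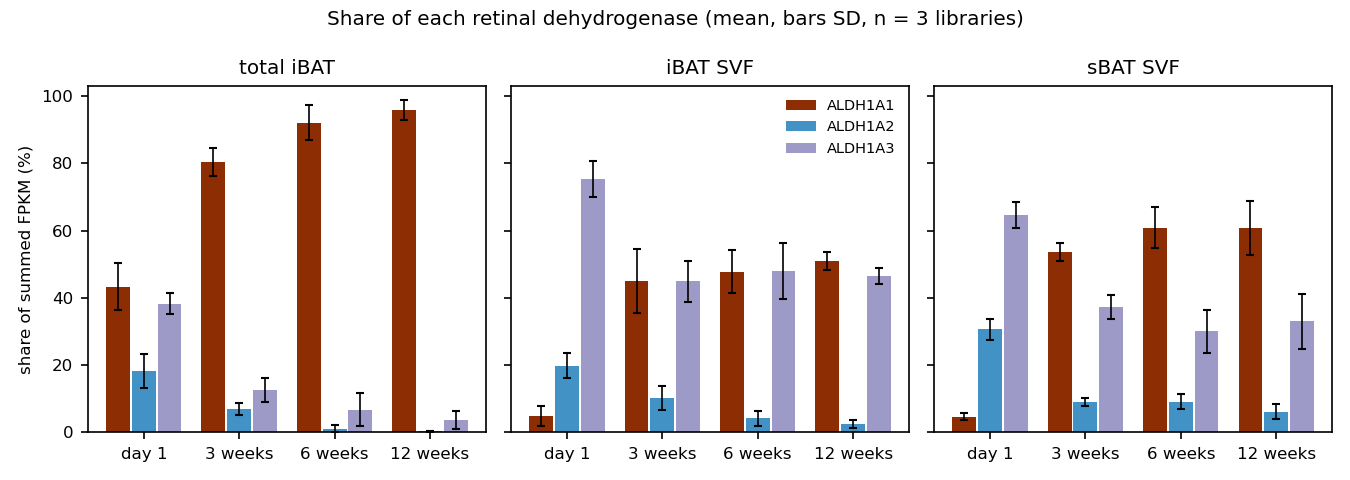
Share of ALDH1A1, ALDH1A2 and ALDH1A3 in the summed FPKM of the 3 enzymes, in percent, by tissue and age; bars are means of 3 libraries and error bars the SD. ALDH1A3 has the largest share in both stromal fractions at day 1, and ALDH1A1 reaches 95.9% in total iBAT at 12 weeks.

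ALDH1A2 as a share of ALDH1A2 and ALDH1A3 alone uses neither ALDH1A1 nor the scaling. In total iBAT it was 32.3%, 37.8% and 26.0% at day 1 and 10.2%, 9.72% and 7.12% at 12 weeks. In iBAT SVF it was 24.4%, 21.6% and 16.4%, and then 5.87%, 2.2% and 7.07%. In sBAT SVF it was 29.7%, 36.2% and 30.6%, and then 11.8%, 23.6% and 12.7%. The day 1 and 12-week libraries did not overlap in any of the 3 tissues. No test was made, since 3 libraries against 3 cannot reach an exact permutation p below 0.1.

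RDH10, which oxidises retinol to retinal in the step before the ALDH1A enzymes, fell in iBAT SVF at 12 weeks. Its FPKM there was 40.7, 54.0 and 57.0 at day 1, 38.2, 49.9 and 25.5 at 3 weeks, 50.6, 42.9 and 48.3 at 6 weeks, and 19.9, 17.8 and 22.1 at 12 weeks. The 12-week libraries were below every earlier library of that fraction. The difference was -1.29 (SE 0.30, limma adjusted p = 0.00218), and -1.17 after scaling (limma adjusted p = 0.000942). The smooth muscle, macrophage, Schwann cell and mesothelial marker sums also were lower at 12 weeks than at day 1 there, with no overlap. The Schwann cell sum (5 of 5 markers) was 315 to 760 at day 1 and 30.9 to 140 at 12 weeks. Progenitor, T cell and B cell sums were higher at 12 weeks. The part of these shifts in the falls of RDH10 and ALDH1A2 was not tested. Among the 6 genes of the set tested there besides ALDH1A1, 2 were called higher and 2 lower at 12 weeks. Over all 13274 genes tested, 37.3% were called, 14.5% higher and 22.8% lower.

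In sBAT SVF, RDH10 was at 27.7, 26.5 and 20.6 FPKM at day 1, 6.32, 19.1 and 17.9 at 3 weeks, 72.3, 54.6 and 66.3 at 6 weeks, and 19.7, 21.4 and 31.7 at 12 weeks. It was highest at 6 weeks, clear of every other age, and the 12-week libraries overlapped those of day 1. The mean sums of the progenitor and macrophage markers followed the same course, lowest at 3 weeks and highest at 6 weeks. The macrophage sum was 62.9 to 128 at 3 weeks and 290 to 459 at 6 weeks. The adipocyte, endothelial and smooth muscle means were also lowest at 3 weeks, but not highest at 6 weeks. The part of these markers' cell types in the RDH10 values was not tested. The 6-week rise was 1.34 (SE 0.30, limma adjusted p = 0.00158), and 1.01 after scaling (limma adjusted p = 0.0036). The 3-week difference was -0.87 as deposited (limma adjusted p = 0.0128) and 0.25 after scaling (limma adjusted p = 0.464), and without 3 weeks replicate 1 it was -0.40 (limma adjusted p = 0.144). At 12 weeks it was -0.06 (limma adjusted p = 0.892). In total iBAT the 4 group means lay between 5.64 and 8.09 FPKM and no age was called, with a 12-week difference of -0.19 (limma adjusted p = 0.409).

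STRA6, the membrane transporter that takes retinol from RBP4, was near the lower limit of these data. Its FPKM was 0.63 to 1.99 in iBAT SVF, 0.00 to 1.72 in sBAT SVF and 0.15 to 1.18 in total iBAT, where it did not reach the level needed for a test. In sBAT SVF it was 1.25, 1.36 and 1.27 at day 1 and 0.00, 0.84 and 0.27 at 3 weeks, below all of day 1. That difference was -0.79 as deposited (limma adjusted p = 0.00261) and -0.53 after scaling (limma adjusted p = 0.102). At 12 weeks the difference was 0.11 in iBAT SVF (limma adjusted p = 0.705) and -0.13 in sBAT SVF (limma adjusted p = 0.65).

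RARA, the most widely expressed retinoic acid receptor, rose in total iBAT at 6 weeks. It was at 6.51, 6.02 and 6.52 FPKM at day 1, 9.74, 13.0 and 7.11 at 3 weeks, 14.2, 13.2 and 10.2 at 6 weeks, and 7.82, 9.61 and 11.03 at 12 weeks. Every later library was above all of day 1. The difference was 0.87 at 6 weeks (SE 0.20, limma adjusted p = 0.00338). At 3 weeks it was 0.54 (limma adjusted p = 0.0457) and at 12 weeks 0.50 (limma adjusted p = 0.0553). After scaling the 6-week value was 0.63 (limma adjusted p = 0.0139) and the 3-week value 0.27 (limma adjusted p = 0.259). At 3 weeks the call stayed without 3 weeks replicate 3 (limma adjusted p = 0.0114), and without any one of the other 5 libraries the limma adjusted p was 0.0813 to 0.186.

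In the stromal fractions RARA was called only in sBAT SVF at 3 weeks, and only as deposited. It was at 13.2, 14.6 and 18.6 FPKM at day 1 there, 4.48, 7.99 and 4.68 at 3 weeks, 13.99, 10.7 and 12.7 at 6 weeks, and 22.4, 25.4 and 20.4 at 12 weeks. The 12-week libraries were above all of day 1, but the difference was 0.54 (limma adjusted p = 0.113) and 0.07 after scaling (limma adjusted p = 0.849). The 3-week difference was -1.32 (limma adjusted p = 0.000256) and -0.26 after scaling (limma adjusted p = 0.429). In iBAT SVF it ran from 7.86 to 24.3 over all ages, and day 1 overlapped 6 and 12 weeks. The 3-week libraries were below those of day 1 there, at 7.86, 8.07 and 12.2 against 24.3, 12.3 and 14.8, and the difference was -0.78 (limma adjusted p = 0.0507).

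RARB, a receptor whose own gene is induced by retinoic acid, rose in the stromal fractions. In iBAT SVF its FPKM was 3.56, 5.05 and 2.97 at day 1, 4.08, 6.53 and 5.14 at 3 weeks, 9.01, 4.41 and 6.35 at 6 weeks, and 6.44, 9.61 and 9.21 at 12 weeks. The 12-week libraries lay above day 1, with a difference of 0.96 (SE 0.29, limma adjusted p = 0.0126) and 1.04 after scaling (limma adjusted p = 0.00658). Without day 1 replicate 3 it was 0.83 (limma adjusted p = 0.0615).

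In sBAT SVF, RARB was at 3.10, 4.35 and 2.21 FPKM at day 1, 1.82, 3.74 and 1.94 at 3 weeks, 8.2, 7.06 and 9.27 at 6 weeks, and 4.68, 7.91 and 11.2 at 12 weeks. Both later ages lay above day 1. The mean progenitor and macrophage marker sums were likewise highest at 6 weeks there, and their part in the RARB values was not tested. The 6-week rise was 1.15 (limma adjusted p = 0.00384), and 0.86 after scaling (limma adjusted p = 0.0253). At 12 weeks it was 1.04 as deposited (limma adjusted p = 0.00613) and 0.63 after scaling (limma adjusted p = 0.0996). In total iBAT, RARB ran from 1.96 to 5.37 FPKM and no age was called, with -0.24 at 12 weeks (limma adjusted p = 0.469).

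**Figure D3:**
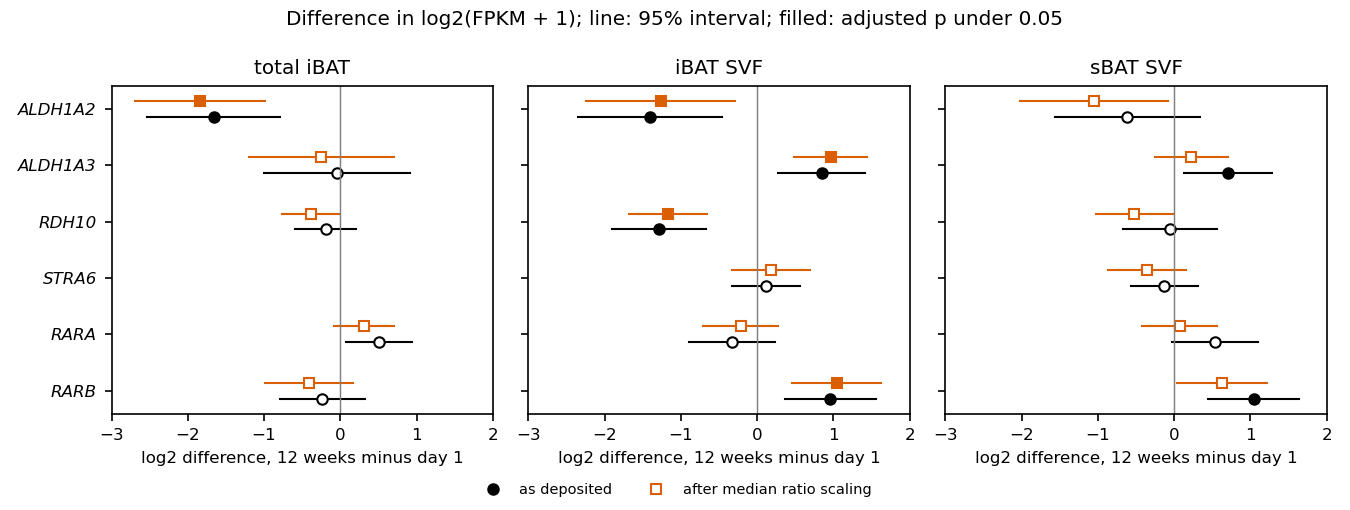
Log2(FPKM + 1) difference between 12 weeks and day 1 for each gene other than ALDH1A1 in the 3 tissues, as deposited and after median ratio scaling. Bars are limma's 95% intervals, and STRA6 in total iBAT was too low to test. ALDH1A1, with values of 4.59, 4.72 and 5.0 as deposited, is not drawn. RDH10 is negative in iBAT SVF at -1.29, and ALDH1A2 is negative in each tissue with an interval that includes 0 in sBAT SVF as deposited.

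Other genes of retinoid handling came from a list of 78 symbols, the 7 genes included, sorted by role. Of these, 58 were found by symbol in the SVF table and 57 in the total iBAT table, and 47 besides ALDH1A1 passed the filter on low values in each table. The list was drawn up with earlier results of these data known, so its counts are a description beside those of all genes tested. The comparisons of 3, 6 and 12 weeks in a tissue share their day 1 libraries.

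In total iBAT, 22 of the 47 (46.8%) were called at 3 weeks, 20 higher and 2 lower, where 41.7% of all genes were called. At 6 weeks it was 30, 25 higher and 5 lower, against 50.7% of all genes. At 12 weeks it was 36 (76.6%), 28 higher and 8 lower, and the list's median difference was 0.74 where that of all genes was 0.19. After scaling the counts were 17, 28 and 33, against 37.9%, 49.4% and 46.0% of all genes, and 33 list genes were called at 12 weeks both ways. Of the 12 genes that convert retinol and retinal, 8 were called higher and 2 lower, where 31.3% of all genes were higher and 15.7% lower. After scaling, 6 of the 12 were higher and 2 lower, where 3033 of all 12853 genes were higher and 2882 lower. Those higher as deposited included RDH5, a retinol dehydrogenase best known from the eye (2.86), and DHRS3, a reductase that turns retinal back to retinol (2.76). The DHRS3 value is that of gene ID 103352513. RefSeq gives the name DHRS3 to gene ID 100348969 as well, which is not in these counts. Whether the 2 share reads is not known, so the rise may not hold for both. RBP4, the plasma carrier of retinol, rose from 9.93 to 52.6 FPKM, a difference of 2.28 (limma adjusted p = 0.00033). ADH1A, an alcohol dehydrogenase that can oxidise retinol, fell from 460 to 68.8 FPKM, a difference of -2.75 (limma adjusted p = 9.01e-06). RXRG, a partner receptor, fell from 35.7 to 6.68 FPKM, a difference of -2.35 (limma adjusted p = 0.000271).

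In iBAT SVF the counts were 14 at 3 weeks (11 higher, 3 lower), 9 at 6 weeks (5 higher, 4 lower) and 22 at 12 weeks (13 higher, 9 lower). Of all genes, 18.7%, 15.4% and 37.3% were called. After scaling the counts were 13, 8 and 23, against 20.3%, 16.3% and 39.3%. The 12-week median of the list was 0.14, where that of all genes was -0.10. The 3-week count was 10 without day 1 replicate 2, and 6 to 8 without day 1 replicate 1 or 3 or any one of the 3-week libraries. The 6-week count was 5 without day 1 replicate 1. RBP4 went the other way here, from 8.60 to 3.15 FPKM at 12 weeks, and fell by 1.15 on the log2 scale (limma adjusted p = 0.0039). RXRG fell as in the whole tissue (-0.79, limma adjusted p = 0.0309), a call lost after scaling (limma adjusted p = 0.106).

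In sBAT SVF the counts were 29 at 3 weeks (4 higher, 25 lower), 21 at 6 weeks (19 higher, 2 lower) and 28 at 12 weeks (25 higher, 3 lower). Of all genes, 71.2%, 35.8% and 44.1% were called, and at 12 weeks 38.3% were higher and 5.86% lower. After scaling the 3-week count was 20 with the direction turned (15 higher, 5 lower), and the 6-week and 12-week counts were 22 (17 higher, 5 lower) and 20 (15 higher, 5 lower), against 32.3%, 31.3% and 29.8% of all genes. At 12 weeks 18 list genes were called both ways. ADH1A rose here from 5.47 to 26.3 FPKM (2.08, limma adjusted p = 0.00325), where it fell in total iBAT, a table normalised separately. CRABP1, a cytoplasmic carrier of retinoic acid, fell by 2.28 on the log2 scale (limma adjusted p = 0.000789). RBP4 was at 10.2 and 10.9 FPKM, a difference of 0.10 (limma adjusted p = 0.803).

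At 12 weeks 11 of the 45 list genes tested in both tables were called higher in all 3 tissues, where 7.70% of all 12169 genes were, and 2 were called lower, where 1.70% were. After scaling it was 10 higher and 2 lower, against 5.43% and 4.55%. Called higher both ways were AKR1B10, AOX1, BCO2, DHRS4, LIPE, LPL, RARG and RARRES1, and lower both ways PDK4 and TGM2. BCO2, which cleaves carotenoids in mitochondria, rose from 63.4 to 146 FPKM in total iBAT, from 14.7 to 52.3 in iBAT SVF and from 4.87 to 41.5 in sBAT SVF. RARRES1, a gene named for its induction by retinoids, rose from 1.35 to 9.55, from 4.21 to 35.0 and from 4.56 to 28.5 FPKM. AOX1, an oxidase that also accepts retinal, rose by 1.54, 2.28 and 2.83 on the log2 scale, and the receptor RARG by 1.48, 1.30 and 1.83 (limma adjusted p of 0.00233 or less for each). LPL and LIPE, lipases that also release retinol from its esters, are at the same time adipocyte markers. The adipocyte sum in total iBAT was 24957 to 32728 at day 1 and 31386 to 41018 at 12 weeks, and its part in these rises was not tested.

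Among genes known to be induced by retinoic acid, TGM2 and PDK4 fell in each tissue. TGM2, a transglutaminase, fell by 1.20, 1.62 and 0.95 on the log2 scale in total iBAT, iBAT SVF and sBAT SVF (limma adjusted p = 0.0323, 0.00239 and 0.0457). PDK4, a kinase that limits glucose oxidation, fell by 5.06, 2.60 and 2.84 (limma adjusted p = 1.9e-06, 0.000108 and 3.12e-05), from a mean of 1769 to 53.7 FPKM in total iBAT. Of the role's genes tested, 9 of 16 were called higher and 3 lower in total iBAT, where 31.3% of all genes were higher and 15.7% lower. The same genes were called in the same direction after scaling, where 3033 of all 12853 genes were higher and 2882 lower. As deposited, 3 of 17 were called higher and 3 lower in iBAT SVF, beside 14.5% and 22.8% of all genes. In sBAT SVF it was 8 and 2 of 17, beside 38.3% and 5.86%. After scaling it was 2 and 2 of 17 in sBAT SVF, beside 1966 higher and 1996 lower of all 13274 genes. In both stromal fractions these counts were near those of all genes.

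CYP26B1, which breaks retinoic acid down, could be matched only through a RefSeq gene ID and is not in these counts. It fell from 4.03 to 0.65 FPKM in total iBAT (-1.53, limma adjusted p = 0.00045), from 10.6 to 1.65 in iBAT SVF (-2.14, limma adjusted p = 5.12e-05) and from 7.57 to 2.69 in sBAT SVF (-1.22, limma adjusted p = 0.00498). After scaling the differences were -1.70, -2.01 and -1.56.

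**Figure D4:**
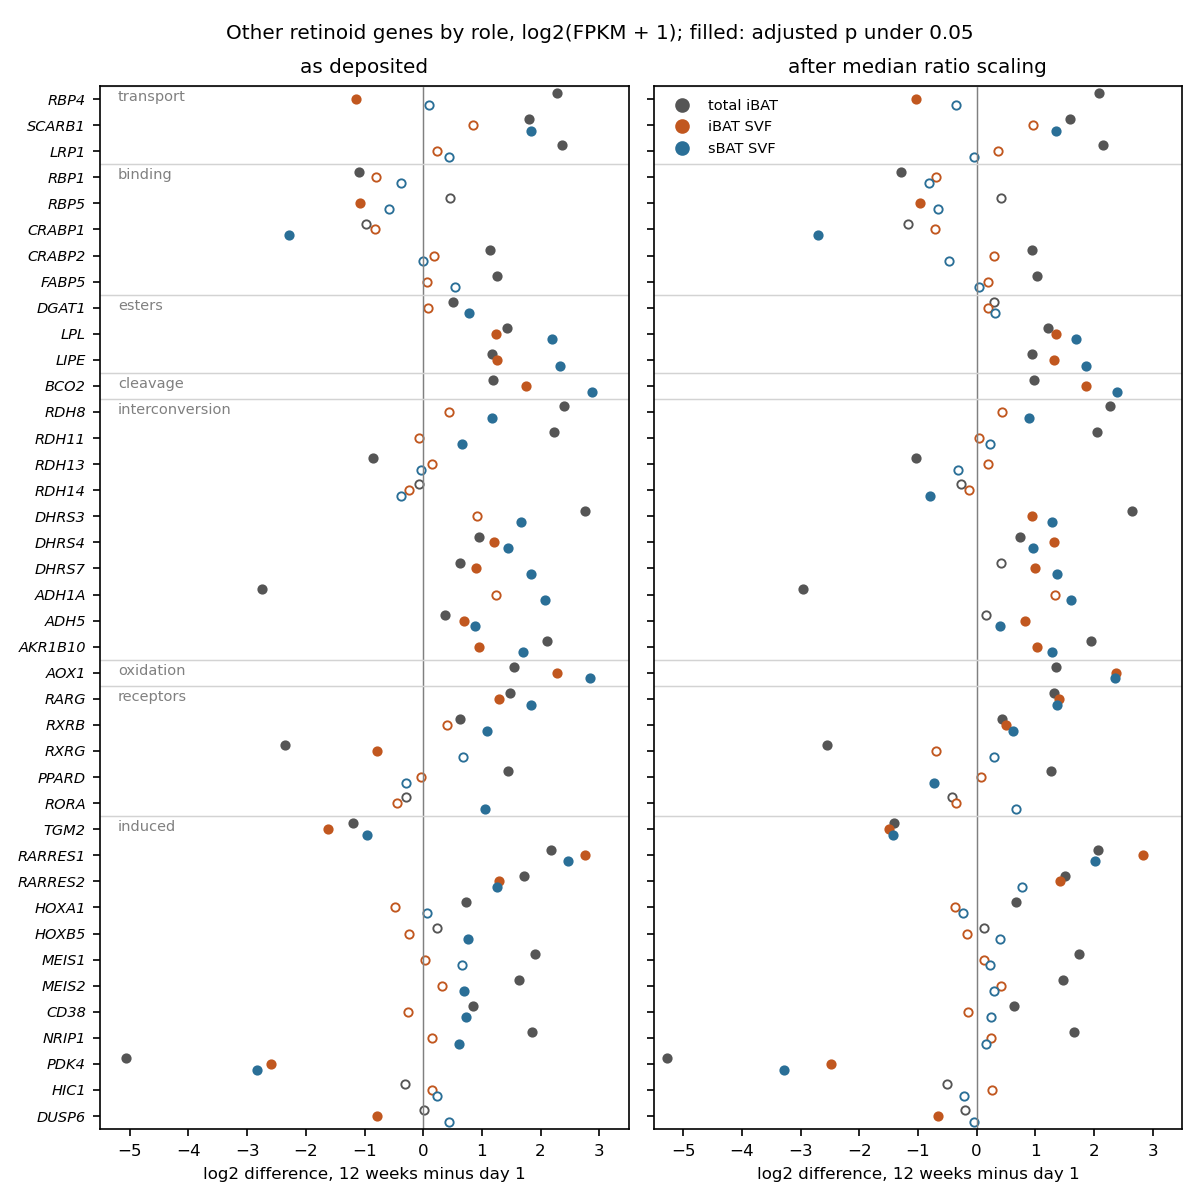
Log2(FPKM + 1) difference between 12 weeks and day 1 for the other retinoid genes tested in both tables, sorted by role, as deposited on the left and after median ratio scaling on the right; each point is a gene in 1 of 3 tissues, and filled points had a limma adjusted p below 0.05. BCO2, AOX1 and RARRES1 are to the right of 0 in each tissue, TGM2 and PDK4 to the left, and as deposited RBP4 is at 2.28 in total iBAT and -1.15 in iBAT SVF.

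The SVF table allows the depots to be compared at each age. ALDH1A1 was chosen by its change with age and not by a depot difference, so limma's test is given for it here. The same libraries' values entered that choice, so its p-values between depots are a description. At day 1 none of the 7 genes was called between iBAT SVF and sBAT SVF by limma, in a comparison where 0.414% of all genes were called (0.158% after scaling). Of the 48 list genes, 0 were called, and 8 had an unadjusted p below 0.05 both as deposited and after scaling. RDH10 was at 50.6 ± 8.67 FPKM in iBAT SVF and 24.9 ± 3.83 in sBAT SVF (SD, n = 3), a difference of 0.99 (SE 0.30, limma adjusted p = 0.137). ALDH1A1 stood at 3.97 and 3.00 FPKM, a difference of 0.22 with a 95% interval of -0.40 to 0.84 (limma adjusted p = 0.759).

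At 3 weeks all 7 were called higher in iBAT SVF as deposited, but so were most genes, with 76.3% called and a median difference over all genes of 0.95. After scaling 7.87% of genes were called and none of the 7 was. ALDH1A1 was 1.04 higher as deposited (SE 0.30, limma adjusted p = 0.00381) and -0.21 after scaling (limma adjusted p = 0.705), and RARA and RARB also changed sign (-0.48 and -0.12). ALDH1A3 was 1.56 as deposited and 0.33 after scaling (limma adjusted p = 0.418). As deposited, the calls of ALDH1A2, STRA6, RARA and RARB were also lost without 3 weeks replicate 1 of sBAT SVF, at a limma adjusted p of 0.0594, 0.235, 0.135 and 0.0507, and also without iBAT SVF replicate 2 for ALDH1A2, STRA6 and RARB, without iBAT SVF replicate 3 for STRA6 and RARA, and without sBAT SVF replicate 3 for STRA6 and RARA, at 0.0519 to 0.175. Of the list, 38 genes were higher as deposited, and after scaling 4 were higher and 2 lower.

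At 6 weeks none of the 7 was called, and 2.47% of all genes were, or 1.05% after scaling. ALDH1A1 was at 72.8 ± 22.1 FPKM in iBAT SVF and 124 ± 25.9 in sBAT SVF (SD, n = 3), with no overlap, and the difference was -0.78 (limma adjusted p = 0.161). ALDH1A2 had -1.5 (limma adjusted p = 0.0778). Of the list, 5 genes were called as deposited and 2 after scaling. CRABP2, a carrier that delivers retinoic acid to the nucleus, was higher in iBAT SVF both ways (1.46, limma adjusted p = 0.0366, and 1.72, limma adjusted p = 0.0445). The count was 2 without iBAT SVF replicate 2 or 3 or sBAT SVF replicate 2, and 1 without sBAT SVF replicate 1.

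At 12 weeks the ALDH1A1 difference between depots was -0.06 with a 95% interval of -0.68 to 0.56 (limma adjusted p = 0.905), and 0.32 after scaling (limma adjusted p = 0.513). RARA was lower in iBAT SVF, at 14, 17.8 and 8.50 against 22.4, 25.4 and 20.4 FPKM, with a difference of -0.77 (limma adjusted p = 0.0472). That call was lost with same-numbered libraries of both depots taken as pairs (replicate block, limma adjusted p = 0.0553). The block took such pairs at every age, while their correlation allows it only at 12 weeks. The call was also lost after scaling (-0.40, limma adjusted p = 0.31). It was lost in all cases with 1 library left out but that of iBAT SVF replicate 2, at a limma adjusted p of 0.052 to 0.263. ALDH1A3 was 0.69 higher in iBAT SVF (limma adjusted p = 0.0721), and 1.07 after scaling, where it was called (SE 0.23, limma adjusted p = 0.0065). As deposited it was also called without sBAT SVF replicate 3 (0.85, limma adjusted p = 0.046).

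The list had 16 calls between depots at 12 weeks as deposited (3 higher in iBAT SVF, 13 lower), where 22.2% of all genes were called, and 5 after scaling (4 higher, 1 lower), where 9.78% were. Both ways CRABP1 was higher in iBAT SVF (1.96, limma adjusted p = 0.00851), as were CRABP2 (1.26, limma adjusted p = 0.0196) and RARRES2, which encodes the adipokine chemerin (1.11, limma adjusted p = 0.0203). RBP4 was lower in iBAT SVF (-1.52, limma adjusted p = 0.00186, and -1.16 after scaling, limma adjusted p = 0.0307). The count was 8 without iBAT SVF replicate 1, 6 without iBAT SVF replicate 3, 7 without sBAT SVF replicate 1 and 8 without sBAT SVF replicate 2. The summed T cell markers (4 of 4) were 6.10 to 23.1 in iBAT SVF and 39.8 to 89.3 in sBAT SVF at 12 weeks, and the erythroid ones (4 of 5) 81.9 to 100.1 and 462 to 847. Their part in these differences was not tested.

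**Figure D5:**
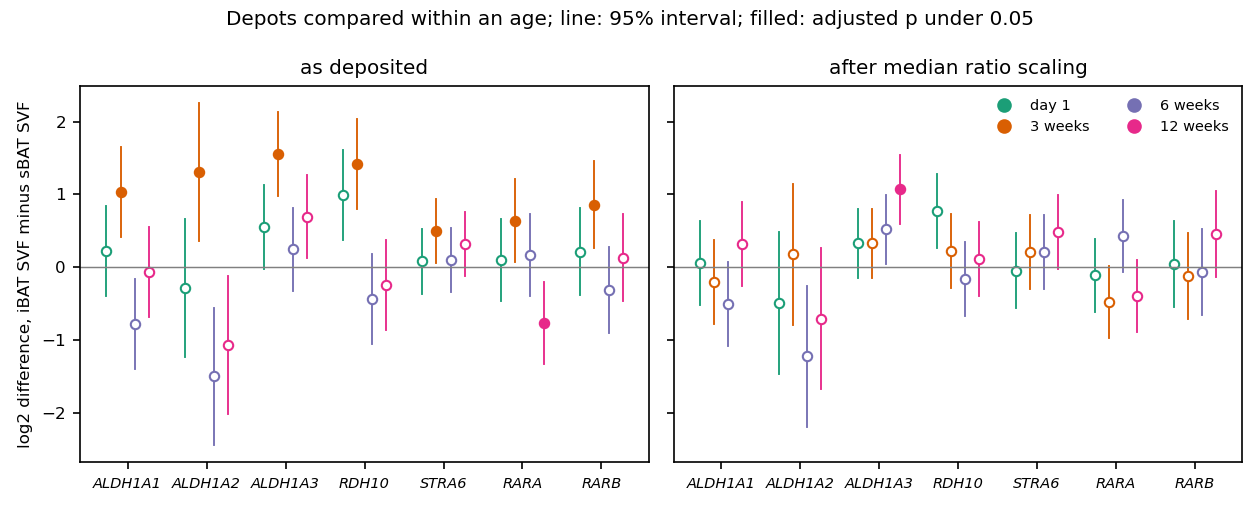
Log2(FPKM + 1) difference of iBAT SVF minus sBAT SVF at each age for the 7 genes, as deposited and after median ratio scaling; bars are limma's 95% intervals. At 3 weeks the deposited values are all above 0, from 0.50 for STRA6 to 1.56 for ALDH1A3, and the scaled values lie nearer 0.

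Whether the change from day 1 to 12 weeks differed between depots was tested as an interaction. RDH10 was the only one of the 6 members tested that was called, with -1.24 (SE 0.42, limma adjusted p = 0.0457): its change was -1.29 in iBAT SVF and -0.06 in sBAT SVF. After scaling the interaction was -0.65 (limma adjusted p = 0.339), and without any one of the 12 libraries of these groups the limma adjusted p was 0.0534 to 0.10. As deposited, 18.4% of all genes had a called interaction, with a median over all genes of -0.50, and after scaling 1.26% did. The list had 8 called, all lower, and 0 after scaling, where 7 had an unadjusted p below 0.05. The 8 became 2 without day 1 replicate 1 or 3 of iBAT SVF or 12 weeks replicate 2 of sBAT SVF, 3 without 12 weeks replicate 1 of iBAT SVF or day 1 replicate 1 or 2 of sBAT SVF, and 1 without 12 weeks replicate 3 of iBAT SVF or 12 weeks replicate 1 of sBAT SVF. For ALDH1A1, which was not tested, it was -0.28, and 0.27 after scaling.

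The genes whose pattern was most like that of ALDH1A1 were ranked by Pearson's r of log2(FPKM + 1) with ALDH1A1 over the 12 libraries of a tissue, averaged over the 3 tissues. The ranking covered 7074 genes. It is a description, since the libraries of a tissue share their age groups and normalisation. HYAL1, a hyaluronidase, came first with a mean r of 0.950, followed by EFCC1 (0.94), PODN (0.924), OLFML1 (0.922), HTRA1 (0.913) and DKK2 (0.907). HYAL1 went from 7.77 to 66.0 FPKM between day 1 and 12 weeks in total iBAT, from 15.7 to 58.6 in iBAT SVF and from 12.4 to 51.3 in sBAT SVF. At the other end were GMPR, a purine enzyme (-0.921), the lipoxygenase ALOX15 (-0.902) and STC1 (-0.889). Among retinoid genes BCO2 ranked 45 (0.868), RARRES1 59 (0.858) and AOX1 61 (0.857), while ALDH1A3 ranked 1796 (0.404) and RARA 3318 (0.123). The mean r was negative for RDH10 (rank 5073, -0.167) and ALDH1A2 (rank 6125, -0.393), and lowest among the retinoid genes ranked for PDK4 (rank 6941, -0.665).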

How the data were processed

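RNA-seq gave 36 bulk libraries, 12 groups of 3, from rabbit brown adipose tissue. The values are FPKM per gene, which the authors deposited in 2 tables, one for total iBAT and one for the SVF libraries. HISAT2 2.0.4, Bowtie2 2.2.5, DESeq2 and the genome build OryCun2.0 are named in the submitters' processing notes. Which tool did which step, and whether counting used strand, is not given in the sources used here. Groups came from the labels. With no counts, log2(FPKM + 1) was fitted with limma 3.58.1 (R 4.3.3) with a variance trend, within each table, over all its groups. A gene was tested where 3 or more libraries of the table reached 1 FPKM, which left 12853 genes for total iBAT and 13274 for SVF. Tests were two-sided and adjusted over all genes tested in a comparison. In all 14 comparisons were made: 3 ages against day 1 in 3 tissues, the depots at 4 ages, and 1 interaction.

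Alternatives were a pseudocount of 0.1, no filter (genes above 0 in any library), median ratio scaling, a fit of only the groups compared, a replicate block, and each replicate left out. The fitting was tested on simulated data. Replicate numbers were judged usable as pairs where the deviations of all 3 same-numbered pairs from their group means correlated over 0.1. Of 13 comparisons checked this held for 1, the depots at 12 weeks (0.252 to 0.5), a pairing read from the data and not stated in the labels. The main fits used no pairs. The replicate block joined same-numbered libraries in all groups of a fit, and within each age for the depot comparisons and the interaction. Genes named are the 7 matched genes, the list of retinoid genes by role (by counts, with values for some of those called in any comparison or that define a role), and the 6 genes most like ALDH1A1 and the 3 least like it, among genes with a mean of at least 10 FPKM in 1 group. The genes and lists were chosen with earlier results of these data known. ALDH1A1 was left out of the counts by age because it was selected on them. RefSeq gene names (mOryCun1.1) served only to match gene IDs. Protein, promoter and genome sequences were not used here. Python 3.11.15, pandas 2.3.3, numpy 2.4.6 and matplotlib 3.10.9 were used for summaries and figures.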

Additional observations from a re-analysis of the deposited data

Results flagged for a closer look

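In 8 retinoid genes the change from day 1 to 12 weeks differed between the depots by limma's interaction test as deposited (iBAT SVF minus sBAT SVF). These 8 are 17.0% of the 47 tested, near the 18.4% of all genes called in that test, and 1 to 11 were called with each library left out in turn. The interaction was -1.24 for RDH10 (limma adjusted p = 0.0457), -1.25 for the retinol carrier RBP4 (limma adjusted p = 0.0389), -0.70 for DGAT1, which can esterify retinol (limma adjusted p = 0.0425), and -0.94 for the dehydrogenase DHRS7 (limma adjusted p = 0.0359). It was -1.46 for the receptor RXRG (limma adjusted p = 0.0187), -1.50 for RORA (limma adjusted p = 0.0156), -0.99 for CD38 (limma adjusted p = 0.0281) and -1.21 for DUSP6 (limma adjusted p = 0.0304). All 8 were negative, as was the median over all genes, -0.50. After median ratio scaling the 8 values lay between -1.02 and -0.13, and none was called.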

How the results depend on the processing

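Median ratio scaling changed the most. It turned the sign of ALDH1A3 (0.40) and RDH10 (0.25) in sBAT SVF at 3 weeks, and of ALDH1A1 (-0.21), RARA (-0.48) and RARB (-0.12) between the depots at 3 weeks. It moved the counts of called retinoid genes between the depots to 6 (3 weeks), 2 (6 weeks) and 5 (12 weeks), and for the interaction to 0. A pseudocount of 0.1 gave 3 at 6 weeks between depots and 4 for the interaction, and a fit of only the groups compared gave 3 at 6 weeks. Leaving the sBAT SVF 3 weeks group out of the fit, an alternative chosen after seeing the data, gave 3 calls between depots at day 1, 9 at 6 weeks and 13 for the interaction. With each library left out in turn the counts ran from 6 to 10 in iBAT SVF at 3 weeks, 5 to 13 there at 6 weeks, 1 to 4 between depots at 6 weeks, 6 to 16 at 12 weeks and 1 to 11 for the interaction. Where that left a group with fewer libraries, the spread was pooled over groups. The cause of these changes was not tested. Of the 169 counts under an alternative, 137 were equal to the main count or within 1.5 times it. This compares the size of a count, not which genes were called or their direction. The sBAT SVF count at 3 weeks (29, and 20 after scaling) is among the 137. Only 10 genes were called both ways there, 1 of them with opposite signs.

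Calls of single genes were also lost at unchanged direction. With no filter these were RARA in total iBAT at 3 weeks, ALDH1A3 in sBAT SVF at 12 weeks, STRA6 and RARA between depots at 3 weeks, RARA between depots at 12 weeks and the RDH10 interaction (limma adjusted p of 0.0531 to 0.0716). With only the groups compared they were RARA in total iBAT and ALDH1A3 and RDH10 in sBAT SVF at 3 weeks, STRA6 and RARA between depots at 3 weeks and RARA at 12 weeks (0.0607 to 0.103). With a pseudocount of 0.1 they were ALDH1A3 in sBAT SVF at 12 weeks, RARA between depots at 12 weeks and the RDH10 interaction (0.0512 to 0.0658).

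In the 12 comparisons other than the depots at 12 weeks, at least 1 same-numbered pair of libraries correlated at or below 0.1, so pairing has no ground in the data there. The main fits used no pairs, and the replicate block used them only as an alternative. With a replicate block the counts were 21, 30 and 35 in total iBAT and 22 in iBAT SVF at 12 weeks. The block lost the calls of RARA in total iBAT at 3 weeks (limma adjusted p = 0.0625), ALDH1A3 in sBAT SVF at 12 weeks (limma adjusted p = 0.0504) and RARA between depots at 12 weeks (limma adjusted p = 0.0553). In that depot comparison 13 list genes were called with the block, which also paired libraries at the other ages.

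FPKM without fragment counts gives no counting error, so small differences in STRA6 or RARB cannot be weighed against depth.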
